A study of Mus musculus with 37 samples.

Results

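The 10 genes described here encode the machinery of intestinal chloride and fluid secretion and the guanylin signalling system that acts on it, and they were taken by their symbols: Cftr, Slc12a2, Kcnq1, Kcnn4, Slc26a3, Slc26a6, Slc9a3, Gucy2c, Guca2a and Guca2b. They are 10 of 31533 genes listed in any of the 3 UMI count tables, which hold the RNA of whole jejunal organoids, of Lgr5-EGFP+ cells sorted from organoids, and of Lgr5-EGFP+ cells sorted from organoids of an irradiation experiment. Vasoactive intestinal peptide (VIP), the neuropeptide tested, was given at 100 nM.

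Whole organoids came from adult C57Bl/6 mice, each line from 1 mouse, and were left untreated (3 cultures) or kept with VIP for 72 h (4 cultures, including mouse 4, which has no untreated culture). Lgr5-EGFP+ cells came from organoids of Lgr5-EGFP-IRES-CreERT2 reporter mice, in which the Lgr5 promoter drives EGFP, with 4 untreated and 4 VIP-treated cultures (72 h) of 4 further mice. In the irradiation experiment, organoids of 4 other lines gave sorted Lgr5-EGFP+ cells in 4 groups of 4: non-irradiated control, non-irradiated VIP, irradiated control (6 Gy) and irradiated VIP (6 Gy, then VIP for 48 h). All sorted groups carry the reporter allele, the mice were 6 to 12 weeks old and of both sexes, and organoids hold epithelium without the nerves, vessels and immune cells of the gut wall. Depth was 3722716 to 6330404 UMIs per culture in whole organoids, 575242 to 1104126 in Lgr5-EGFP+ cells and 1075715 to 1876729 in the irradiation experiment.

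As background, crypt cells secrete chloride by loading it across the basolateral membrane with the sodium-potassium-chloride cotransporter NKCC1 (Slc12a2) and releasing it into the lumen through the cAMP-activated anion channel CFTR. Basolateral potassium channels, KCNQ1 for cAMP and KCNN4 for calcium signals, keep the driving force, while villus cells absorb salt through the exchangers SLC26A3, SLC26A6 and NHE3 (Slc9a3). VIP is a classic secretagogue that raises epithelial cAMP. The peptides guanylin (Guca2a) and uroguanylin (Guca2b) raise cGMP through the receptor guanylate cyclase C (Gucy2c), which opens CFTR and inhibits NHE3.

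The guanylin genes are neighbours on chromosome 4 of GRCm38 in GENCODE M21: Guca2a lies on the plus strand from 119637704 to 119639471 and Guca2b on the minus strand from 119656607 to 119658954, with 17135 bases between them. The 250 bases before the RefSeq starts of 3 genes are shown because these are the genes whose levels passed the test after irradiation of untreated cells, the guanylins upwards and Slc26a3 downwards. Coordinates are GRCm38.p6, and capitals mark 2 motifs, a GATA core (AGATAA or its complement TTATCT) in Guca2a and an HNF1 core (GTTAAT) in Guca2b and Slc26a3.
Guca2a, chr4:119637482-119637731, plus strand: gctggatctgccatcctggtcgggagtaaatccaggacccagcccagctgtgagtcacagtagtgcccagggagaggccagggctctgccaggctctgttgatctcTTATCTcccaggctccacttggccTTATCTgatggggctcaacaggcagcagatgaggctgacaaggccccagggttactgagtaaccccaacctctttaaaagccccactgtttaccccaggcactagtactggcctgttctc
Guca2b, chr4:119658946-119659195, minus strand: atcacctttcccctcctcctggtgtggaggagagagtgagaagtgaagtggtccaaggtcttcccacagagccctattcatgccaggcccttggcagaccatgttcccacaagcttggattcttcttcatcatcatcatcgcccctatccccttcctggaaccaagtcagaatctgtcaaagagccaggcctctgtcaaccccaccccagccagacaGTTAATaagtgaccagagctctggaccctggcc
Slc26a3, chr12:31437969-31438218, plus strand: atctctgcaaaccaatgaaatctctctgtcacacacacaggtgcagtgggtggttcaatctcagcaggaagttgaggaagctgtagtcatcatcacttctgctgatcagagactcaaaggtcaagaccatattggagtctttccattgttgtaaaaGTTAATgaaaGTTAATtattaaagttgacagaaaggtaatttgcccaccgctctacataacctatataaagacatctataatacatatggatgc
Guca2a held TTATCT at 144 and 120 bases before its start, Guca2b held GTTAAT at 33 bases, and Slc26a3 held GTTAAT at 94 and 84 bases. On either strand, AGATAA was found in 11.2% and GTTAAT in 7.1% of 32851 mouse promoters of the same 300 bases, and both motifs were added after these sequences had been read. The cAMP response element TGACGTCA (1.79% of promoters), its shorter core TGACG (20.8%), the HNF4 letters CAAAGTCCA (0.475%) and the CDX letters TTTATG (11.9%) were found in none of the 7 member promoters that could be matched, those of Guca2a, Guca2b, Cftr, Kcnn4, Slc26a6, Slc26a3 and Slc9a3. These matches describe letters in a window only. The RefSeq start used for Slc26a3 lies inside its GENCODE gene, which spans 31390871 to 31473917 on chromosome 12.

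Among the 10 genes, 1 passed the test with VIP in whole organoids (Guca2a, higher), none in sorted cells with VIP, 3 after irradiation of untreated cells (Guca2a and Guca2b higher, Slc26a3 lower) and 3 after irradiation of VIP-treated cells (Guca2a and Gucy2c higher, Kcnq1 lower). Of all genes tested, 4.82% passed with VIP in whole organoids, 4.46% after irradiation of untreated and 7.78% of VIP-treated cells. With VIP in sorted cells few genes of any kind passed: 0.0885% in the 72 h experiment, 0.742% in non-irradiated and 0.221% in irradiated cells. Levels are UMIs scaled to 1000000 per sample (CPM), after TMM scaling within each table. Each test was edgeR's quasi-likelihood test, blocked by mouse, with Benjamini-Hochberg adjustment over all genes tested and a threshold of 0.05 on the adjusted p. The fold changes compare cultures of the same mouse.

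A library stood apart from the others of its label in part of the markers, the second of the pair of technical libraries of VIP-treated mouse 3 in whole organoids, which were summed. The goblet cell gene Clca1 had 52.3 CPM of total UMIs there, within the 40.2 to 60.9 CPM of the 5 untreated libraries and below the 173 to 325 CPM of the other 7 VIP-treated ones. Zg16, another goblet cell gene, had 155 CPM, against 112 to 152 in the untreated and 361.5 to 594 in the other VIP-treated libraries. The brush border phosphatase gene Alpi had 135 CPM, against 112 to 210.1 and 281 to 475. Other goblet markers showed this less: Agr2 lay within the untreated and below the other VIP-treated libraries, and Muc2, Fcgbp and Spink4 lay within the range of both. Tff3 had 1620 CPM, above the untreated libraries (1257 to 1470) and below the other VIP-treated ones (1883 to 2294). Whether that label is right was not tested, and every whole-organoid VIP value of mouse 3 and every fit to these cultures includes this library unless stated, which lay at or close to untreated levels of Clca1, Zg16 and Alpi. Without it, 2 members were called in whole organoids, Guca2a higher and Slc26a3 lower, where 9.94% of all genes were called.

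Untreated levels differed between whole organoids and sorted cells to an unlike extent among the members. Slc26a6, the apical chloride, bicarbonate and oxalate exchanger, had 89 to 146 CPM in untreated whole organoids, against 5.01 to 5.72 in the non-irradiated controls of the irradiation experiment and 0 to 7 UMIs per untreated Lgr5-EGFP+ sample. Slc26a3 (DRA), the main chloride-bicarbonate exchanger of surface enterocytes, had 89.6 to 109 CPM in untreated whole organoids, 6.71 to 17.1 in untreated Lgr5-EGFP+ cells and 29.3 to 41.3 in the non-irradiated controls. Slc9a3 had 8.01 to 12.9 CPM in untreated whole organoids, 0 to 4 UMIs per sample in the irradiation experiment, and no row in the Lgr5-EGFP+ table. Guca2b had 532 to 1155, 147 to 213 and 116 to 187 CPM in the same 3 untreated groups, whereas Guca2a had 466 to 802, 475 to 676 and 328 to 548. The summed level of 10 enterocyte markers was 16610 to 17810 CPM in the untreated whole organoids, 1254 to 3041 in untreated Lgr5-EGFP+ cells and 1852 to 2355 in the non-irradiated controls, and that of 5 stem cell markers was 1887 to 4344, 4203 to 5849 and 3157 to 4243. The sorted cells thus still held RNA of enterocyte, goblet and Paneth markers, at summed levels of at least 1254, 4050 and 5200 CPM in untreated Lgr5-EGFP+ cells. The tables were scaled separately, so these levels are set side by side without a test, and in bulk samples fewer cells of a type and less RNA per cell cannot be told apart. Mice, their strain and depth also differ between whole organoids and sorted cells and cannot be told apart from the compartment. Levels of Slc26a3 differed between the sorted control groups as well. Mesenchymal markers summed to at most 2.6 CPM and immune markers to at most 33.8 CPM in any sample.

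**Figure D1:**
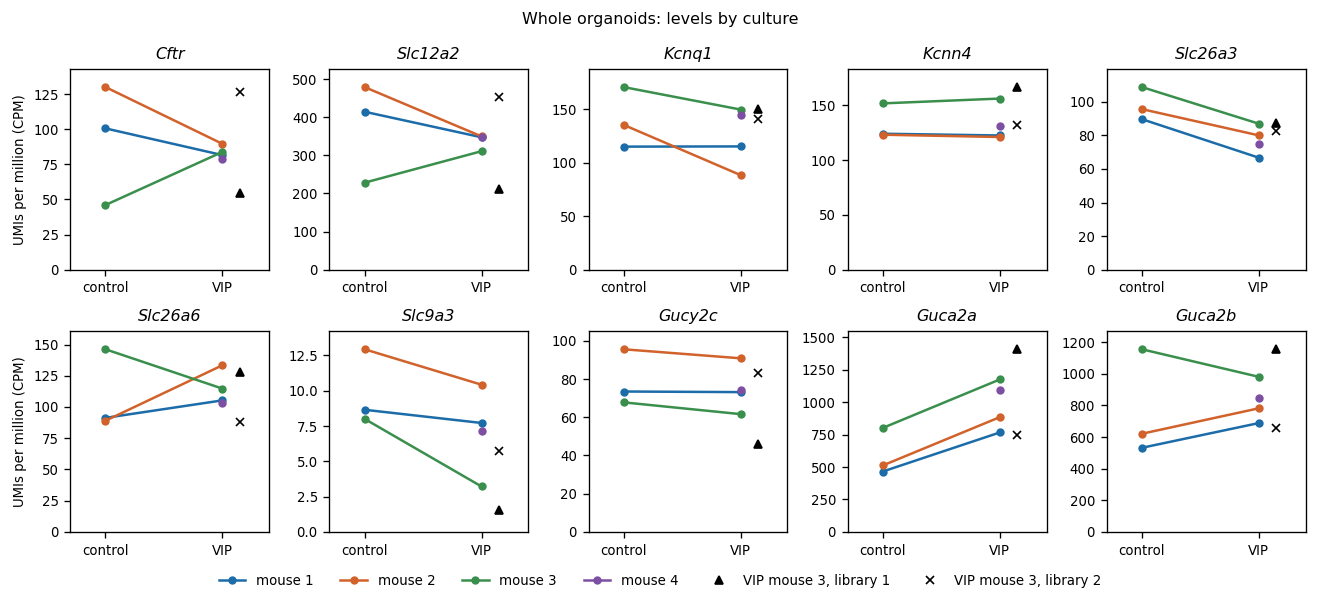
Level of each gene in whole organoids (CPM, vertical axis from 0) in untreated and VIP-treated cultures. Lines join the cultures of a mouse, mouse 4 has VIP only, and black symbols show the 2 technical libraries of VIP-treated mouse 3 apart. Guca2a rises in each of the 3 joined pairs, while the 2 libraries of mouse 3 lie at 1408 and 750 CPM for Guca2a and at 54.6 and 126 CPM for Cftr.

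The anion channel and the chloride loader did not pass the test in any comparison. In whole organoids Cftr had 101, 130 and 46.1 CPM without VIP in mice 1, 2 and 3, and 81.6, 89.6, 83.9 and 79.0 CPM with VIP in mice 1 to 4. VIP-treated cultures lay close together between the untreated ones, with lower levels in mice 1 and 2 and a higher level in mouse 3 (log2 fold change −0.05, SE 0.19, adjusted p = 0.945 in edgeR's test). Slc12a2 had 414, 479 and 228 CPM without VIP and 347, 349.7, 311 and 349 CPM with VIP, in the same arrangement (log2 fold change −0.10, SE 0.14, edgeR adjusted p = 0.802). Without mouse 3, both were called lower, Cftr with −0.42 (adjusted p = 4.88e-04) and Slc12a2 with −0.35 (adjusted p = 8.91e-04), in a fit that calls 12.8% of all genes. Here and below, whole-organoid fits without mouse 3 rest on the pairs of mice 1 and 2 alone. Their p-values therefore say little about the spread between mice.

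The pair of technical libraries of VIP-treated mouse 3 also stood apart from each other in Cftr and Slc12a2, on the same scale of total UMIs per library. Cftr had 54.6 CPM in the first library and 126 in the second, where the untreated libraries of mice 1 and 2 had 84.2 to 135 and the untreated library of mouse 3 had 43.3. Slc12a2 had 212 and 453 CPM in these libraries, against 384 to 504 in the untreated libraries of mice 1 and 2 and 214 in that of mouse 3. For both genes, the second library thus lay within the range of untreated mice 1 and 2, and above the other 7 VIP-treated libraries (54.6 to 98.4 CPM for Cftr, 212 to 384 for Slc12a2). Goblet markers summed to 10270 CPM in the first and 6696 in the second library and enterocyte markers to 10430 and 17390 CPM, and their part in the result was not tested.

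In sorted cells, Cftr ranged from 44.1 to 86.7 CPM without and 53.3 to 77.1 with VIP in the 72 h experiment (log2 fold change 0.15, SE 0.20, edgeR adjusted p = 0.967), and from 36.1 to 58.8 CPM over all 16 samples of the irradiation experiment. Slc12a2 ranged from 216 to 374 CPM without and from 290.3 to 335 with VIP (log2 fold change 0.18, SE 0.14, edgeR adjusted p = 0.941). In the irradiation experiment it had 132 to 179 CPM in non-irradiated controls, 123 to 184 with VIP, 152 to 199 in irradiated controls and 149 to 241 in irradiated VIP-treated cells. With irradiation of VIP-treated cells it was higher in 3 of 4 mice and missed the threshold (log2 fold change 0.32, SE 0.12, edgeR adjusted p = 0.0894), which it passed without mouse 1 (0.48, adjusted p = 0.0176). All 4 groups overlapped for both genes.

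**Figure D2:**
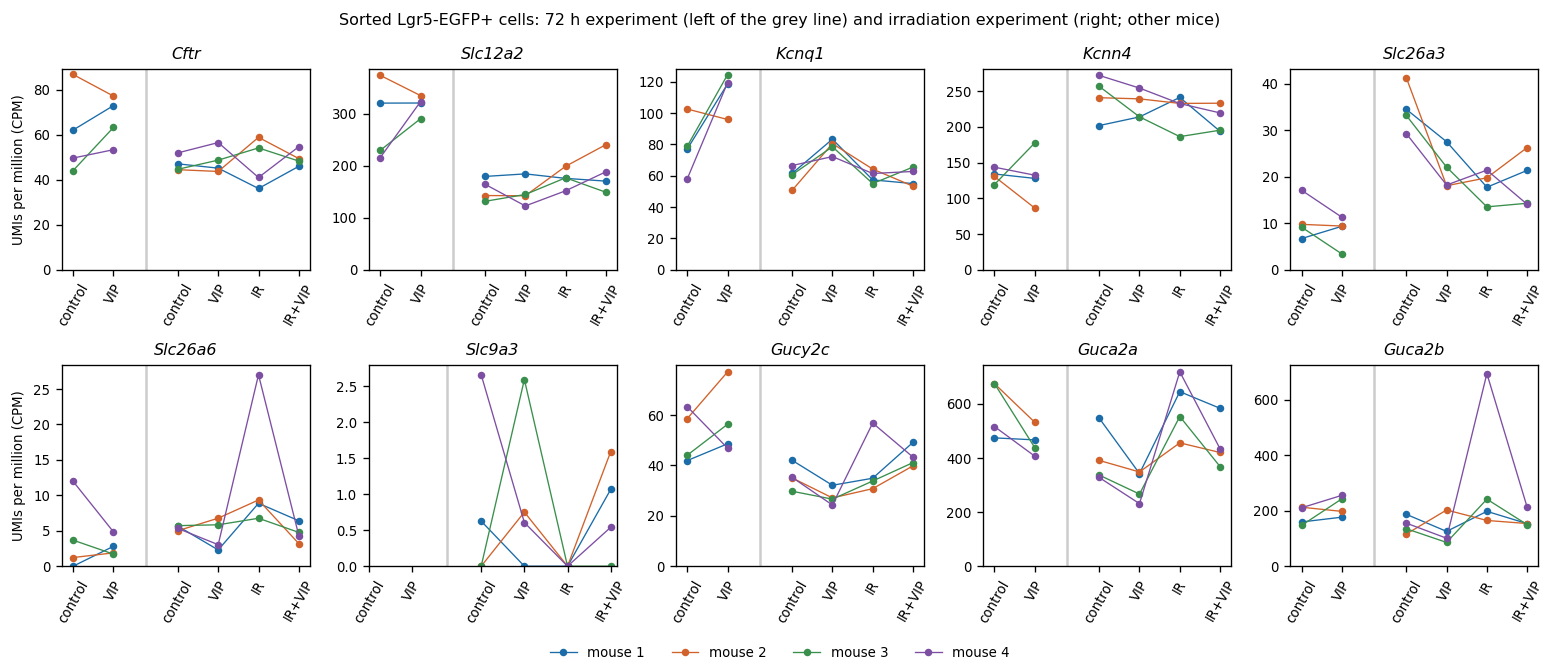
Level of each gene in sorted Lgr5-EGFP+ cells (CPM, vertical axis from 0), with the 72 h experiment left of the grey line and the irradiation experiment to its right (IR, 6 Gy). Lines join samples of a mouse within an experiment and carry no order. Kcnq1 is at 72.3 to 83.4 CPM in the 4 non-irradiated VIP samples and at 66.6 CPM or less in the other 12 samples of the irradiation experiment, and Guca2b reaches 694 CPM in irradiated control mouse 4 only.

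Of the potassium channels, Kcnq1 fell with irradiation of VIP-treated cells, and Kcnn4 did not pass the test in any comparison. In non-irradiated sorted cells Kcnq1 had 61.5, 50.7, 60.7 and 66.6 CPM in control mice 1 to 4 and 83.4, 80.5, 78.5 and 72.3 CPM with VIP. Every VIP sample lay above every control (log2 fold change 0.39, SE 0.11, higher in 4 of 4 mice), without passing the threshold (edgeR adjusted p = 0.0963), and the groups did not overlap for 6.66% of all genes tested. In irradiated cells it had 57.4, 64.3, 55.1 and 61.5 CPM without VIP and 55.0, 53.4, 65.6 and 62.8 CPM with VIP, so that the groups overlapped (log2 fold change −0.02, SE 0.12). Irradiation of VIP-treated cells lowered Kcnq1 in 4 of 4 mice with no overlap (log2 fold change −0.40, SE 0.11, edgeR adjusted p = 0.0241), where 12.8% of all genes did not overlap and 7.78% were called. The call of Kcnq1 was lost without mouse 1 (adjusted p = 0.132), mouse 2 (0.122) or mouse 3 (0.0620) and with DESeq2 (0.116). The comparison of irradiation in VIP-treated cells and the one of VIP in non-irradiated cells share the non-irradiated VIP samples. The interaction of VIP with irradiation was −0.41 for Kcnq1 (SE 0.16, unadjusted p = 0.0185, adjusted p = 0.687 in edgeR's test).

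In the separate 72 h experiment Kcnq1 had 77.2, 103, 78.9 and 58.2 CPM without VIP and 119, 95.9, 125 and 119.5 CPM with VIP, higher in 3 of 4 mice (log2 fold change 0.54, SE 0.19, edgeR adjusted p = 0.826). In whole organoids it was lower in 2 of 3 mice (log2 fold change −0.27, SE 0.12, edgeR adjusted p = 0.269; −0.30 and 0.0223 without mouse 3), and the difference between the VIP effects in sorted cells and whole organoids was 0.80 (SE 0.23, edgeR adjusted p = 0.329). Kcnq1 shares its locus with the antisense transcript Kcnq1ot1 and Cftr with Gm15592, and since the use of strand in counting is not given in the sources used here, reads of these partners cannot be told apart. Kcnn4 lay between 121 and 156 CPM in all whole-organoid cultures (log2 fold change 0.00, SE 0.09) and between 187 and 272 CPM in the irradiation experiment. In the 72 h experiment it had 119 to 144 CPM without and 86.5 to 178 CPM with VIP (−0.04, SE 0.17).

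None of the absorptive exchangers was called with VIP, and Slc26a3 fell with irradiation of untreated cells. In whole organoids Slc26a3 had 89.6, 95.6 and 109 CPM without VIP and 66.7, 79.95, 86.9 and 74.6 CPM with VIP. All VIP-treated cultures lay below all untreated ones, a separation seen for 9.71% of genes, with a log2 fold change of −0.34 (SE 0.10) and an edgeR adjusted p of 0.0728. Without mouse 3 the adjusted p was 0.0114, and without the second library of VIP-treated mouse 3 it was 0.0263, in the fit that calls 9.94% of all genes. Slc9a3 had 8.66, 12.9 and 8.01 CPM without VIP and 7.72, 10.4, 3.22 and 7.18 with VIP, lower in 3 of 3 mice with overlapping groups (log2 fold change −0.48, SE 0.24, edgeR adjusted p = 0.347). Slc26a6 had 91.3, 89 and 146 CPM without VIP and 105, 133, 115 and 103 with VIP (log2 fold change 0.15, SE 0.14, edgeR adjusted p = 0.684), and was called higher without mouse 3 (0.40, adjusted p = 0.00133). Over the same cultures the summed enterocyte markers were 16610 to 17810 CPM without and 13360 to 16290 with VIP, with 2 of 10 called lower, among them the fatty acid binding protein gene Fabp1, and 2 called higher, the brush border genes Alpi and Vil1, and their part in the result was not tested.

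In the irradiation experiment Slc26a3 had 34.5, 41.3, 33.2 and 29.3 CPM in control mice 1 to 4. It had 27.5, 18.1, 22.1 and 18.2 CPM with VIP, 17.75, 19.8, 13.5 and 21.4 CPM in irradiated controls and 21.4, 26.3, 14.3 and 14.1 CPM in irradiated VIP-treated cells. The controls were above every sample of the other 3 groups. The groups did not overlap for 8.48% of all genes in irradiation of untreated cells and for 6.66% with VIP in non-irradiated cells. Irradiation of untreated cells lowered it (log2 fold change −0.95, SE 0.19, edgeR adjusted p = 0.00302, lower in 4 of 4 mice), and with VIP in non-irradiated cells it was lower in 4 of 4 mice without passing the threshold (−0.68, SE 0.18, adjusted p = 0.0808). These comparisons share the non-irradiated controls. With the 2 groups of the VIP comparison fitted alone, the adjusted p was 0.0428. In VIP-treated cells irradiation gave −0.21 (SE 0.20, adjusted p = 0.611), and in irradiated cells VIP gave 0.06 (SE 0.21, adjusted p = 0.995). The interaction was 0.74 (SE 0.28, unadjusted p = 0.0141, edgeR adjusted p = 0.687). The counts behind the irradiated controls were 14 to 36 UMIs per sample.

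Slc26a6 was higher in the same irradiated cells without passing the threshold. It had 5.65, 5.01, 5.72 and 5.32 CPM in controls and 8.88, 9.34, 6.76 and 27.0 CPM in irradiated controls, higher in 4 of 4 mice with no overlap (log2 fold change 1.16, SE 0.38, edgeR adjusted p = 0.0839), from 8 to 10 and 7 to 29 UMIs per sample. Irradiated VIP-treated cells had 6.41, 3.19, 4.77 and 4.33 CPM, all below the irradiated controls (log2 fold change −1.36, SE 0.39, adjusted p = 0.260, a separation seen for 2.9% of genes tested). Slc9a3 had 0 UMIs in all 4 irradiated controls and 5 or 6 UMIs in total in each of the other 3 groups, too few to be tested.

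**Figure D3:**
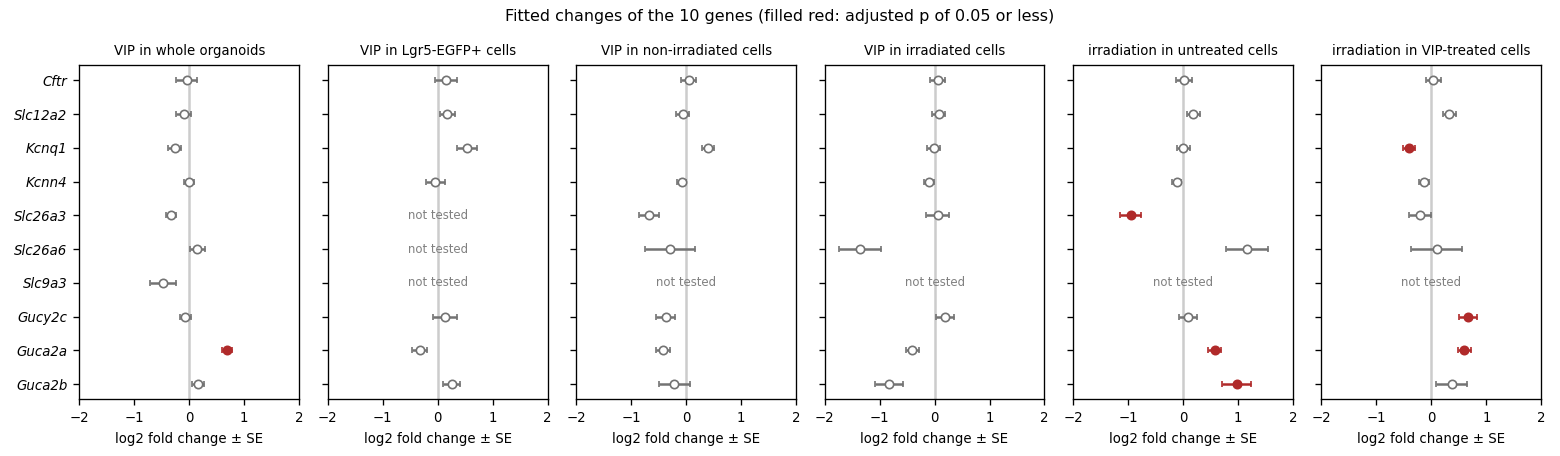
Log2 fold change of each gene in 6 comparisons, from edgeR's fit with the mouse as a block, with a standard error worked out from the F statistic of the test. Filled red points have an adjusted p of 0.05 or less, and genes marked as not tested had too few counts. Guca2a is red and to the right of 0 in 3 panels, whole organoids with VIP and both irradiation comparisons.

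Guanylin signalling held most of the calls. In whole organoids Guca2a had 466, 512 and 802 CPM without VIP in mice 1 to 3 and 767, 885, 1175 and 1092 CPM with VIP in mice 1 to 4. Each treated culture lay above the untreated culture of its mouse, although mouse 1 with VIP lay below untreated mouse 3. The log2 fold change was 0.69 (1.61-fold, SE 0.09, edgeR adjusted p = 3.20e-04), the 1 call among the 10 members, where 4.82% of all genes were called (3.72% higher and 1.1% lower). Guca2b had 532, 621 and 1155 CPM without VIP and 688, 782, 981 and 849.9 CPM with VIP, higher in mice 1 and 2 and lower in mouse 3 (log2 fold change 0.16, SE 0.11, edgeR adjusted p = 0.558). Without mouse 3 it was called higher (0.35, edgeR adjusted p = 7.78e-04), in the fit that calls 7 members and 12.8% of all genes from the pairs of mice 1 and 2. Gucy2c, the receptor of both peptides, had 73.5, 95.6 and 67.8 CPM without and 73.2, 90.9, 61.6 and 74.2 CPM with VIP (log2 fold change −0.07, SE 0.10, edgeR adjusted p = 0.798).

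The call of Guca2a depended on which library of VIP-treated mouse 3 was kept and on the pairing by mouse. It had 1408 CPM in the first library of VIP-treated mouse 3 and 750 in the second, against 448 to 753 CPM in the 5 untreated libraries. With the first library left out and the second kept, an alternative added after the data were seen, the log2 fold change was 0.47 (edgeR adjusted p = 0.832) and no gene of the table was called. With the second left out and the first kept it was 0.79 (edgeR adjusted p = 2.33e-05). Without mouse 3, which removes both and leaves mice 1 and 2 as the only pairs, it was 0.75 (edgeR adjusted p = 3.88e-16). So few pairs say little about the spread between mice. The call also held without mouse 1 or mouse 2. Mouse 4 has no untreated culture, so the paired fold change rests on mice 1 to 3, and leaving out mouse 4 could not test the call. Without the mouse as a block the log2 fold change was 0.72 (adjusted p = 0.232). Goblet markers moved with it: 6 of 7 were called higher, including the mucus proteins Clca1 (log2 fold change 2.08) and Zg16 (1.67), and their sum was 5346 to 7216 CPM without and 7710 to 9398 CPM with VIP. Their part in the result was not tested.

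In sorted Lgr5-EGFP+ cells Guca2a was lower with VIP in each mouse, and the difference from whole organoids passed the test. The 72 h experiment had 475, 675, 676 and 517 CPM without VIP and 467, 532, 439 and 407 CPM with VIP, lower in 4 of 4 mice with overlapping groups (log2 fold change −0.33, SE 0.13, edgeR adjusted p = 0.885). Guca2b had 159, 213, 147 and 210.4 CPM without and 177, 198, 243 and 255 CPM with VIP, higher in 3 of 4 mice (0.25, SE 0.15, adjusted p = 0.911), and Gucy2c had 41.9 to 63.3 CPM without and 46.8 to 77.1 with VIP (0.14, SE 0.22, adjusted p = 0.967). None of the 7 members tested was called there, where 0.0885% of all genes were (2 members had an unadjusted p under 0.05, and DESeq2 called 0 members). A fit over both experiments gave a difference in VIP effect between sorted cells and whole organoids of −1.01 for Guca2a (SE 0.18, edgeR adjusted p = 0.0145), the 1 member called where 0.147% of all genes were (0.0196% higher and 0.128% lower). In this fit, leaving out a mouse number removed the mouse of that number from both experiments, which are different animals. The call was lost without number 1 (adjusted p = 0.0803), number 2 (0.233) or number 4 (0.154). It was also lost without the block (0.518) and without the first library of VIP-treated mouse 3 of whole organoids (0.969). Values ranged from −1.18 to −0.80 over all alternatives. Mice, their strain and sequencing depth also differ between these experiments and cannot be told apart from the compartment. Among goblet markers, 3 of 7 (Tff3, Fcgbp and Zg16) had a lower VIP effect in the sorted cells by the same test.

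In the irradiation experiment Guca2a had 548, 391, 337 and 328 CPM in control mice 1 to 4 and 343, 348.5, 267 and 231 CPM with VIP. It had 646, 456, 554 and 719 CPM in irradiated controls and 584, 420.5, 368 and 434 CPM in irradiated VIP-treated cells. With VIP it was lower in each of 4 mice in both non-irradiated cells (log2 fold change −0.42, SE 0.12, edgeR adjusted p = 0.0972) and irradiated cells (−0.40, SE 0.12, adjusted p = 0.289), so that no member was called in either, where 0.742% and 0.221% of all genes were. Unadjusted p-values under 0.05 were found for 4 and 3 members, and DESeq2 called 0 in both. Guca2a was called lower in non-irradiated cells with the 2 groups fitted alone (−0.43, edgeR adjusted p = 0.00292) and without a filter on low counts (−0.43, 2.73e-05), and in irradiated cells without a filter (−0.40, 1.23e-04). In the same order, 2.01%, 0.661% and 0.399% of all genes were called. The fold changes were nearly those of the reported fit, so these calls came with the fit setting and not with a larger change. Irradiation raised Guca2a in each of 4 mice in untreated cells (0.58, SE 0.12, adjusted p = 0.00323) and VIP-treated cells (0.60, SE 0.12, adjusted p = 0.00218). The call in untreated cells was lost without mouse 3 (0.54, edgeR adjusted p = 0.0666) and without mouse 4 (0.39, 0.0666). The interaction was 0.02 (SE 0.17), and 0% of all genes were called for it (634 of 9976 had an unadjusted p under 0.05, and DESeq2 called 0).

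Guca2b had 187, 116, 135 and 155 CPM in controls, 125, 203, 85.7 and 101 with VIP, 198, 165, 242 and 694 in irradiated controls and 153, 154, 149.6 and 212 in irradiated VIP-treated cells. Irradiation of untreated cells raised it in 4 of 4 mice (log2 fold change 0.98, SE 0.26, edgeR adjusted p = 0.0302). Mouse 4 set the size of this change, which was 0.45 (adjusted p = 0.350) without that mouse and 1.03 (adjusted p = 0.144) without mouse 3, and DESeq2 gave an adjusted p of 0.272. Together with Guca2a and Slc26a3, this made 3 of 9 members called, beside 4.46% of all genes (2.87% higher and 1.59% lower). With VIP in irradiated cells Guca2b was lower in 4 of 4 mice (−0.83, SE 0.26, adjusted p = 0.394).

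The receptor Gucy2c had 42.0, 35.1, 29.8 and 35.3 CPM in controls and 32.1, 27.1, 26.6 and 24.3 with VIP, lower in 4 of 4 mice (log2 fold change −0.37, SE 0.17, edgeR adjusted p = 0.371). Irradiated controls had 34.9, 30.8, 33.8 and 56.8 CPM and irradiated VIP-treated cells 49.2, 39.8, 41.1 and 43.3 CPM. Irradiation of VIP-treated cells raised it with no overlap (0.66, SE 0.16, edgeR adjusted p = 0.0111, in 4 of 4 mice), whereas the value in untreated cells was 0.10 (SE 0.16, adjusted p = 0.830). The interaction was 0.56 (SE 0.23, unadjusted p = 0.0222, adjusted p = 0.687). Gucy2c, Guca2a and Kcnq1 were the 3 of 9 members called for irradiation of VIP-treated cells, where 7.78% of all genes were called (4.32% higher and 3.46% lower) and 12.8% had groups that did not overlap. Gucy2c lost its call without mouse 3 (adjusted p = 0.0563).

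Enterocyte markers moved in the same samples. Their sum was 1852 to 2355 CPM in controls, 1434 to 1785 with VIP, 2144 to 3864 in irradiated controls and 1860 to 2072 in irradiated VIP-treated cells, with the highest value in irradiated control mouse 4, where Guca2a, Guca2b, Gucy2c and Slc26a6 were also highest. After irradiation of untreated cells, 2 of 9 enterocyte markers were called higher (Fabp1 and Apoa1), as were 5 of 7 goblet, 6 of 6 Paneth and 3 of 5 enteroendocrine markers, while 2 of 5 stem cell markers (Olfm4 and Smoc2) were called lower. Cd74, the 1 gene of the immune marker list that was tested, was called higher too (log2 fold change 2.09, in 3 of 4 mice), from at most 6.26 CPM in controls to 5.5 to 31.9 CPM. Bulk samples do not show which cells held its RNA. After irradiation of VIP-treated cells, where Guca2a, Gucy2c and Kcnq1 were called, 1 of 9 enterocyte, 3 of 7 goblet, 6 of 6 Paneth and 5 of 5 enteroendocrine markers were called higher and 2 of 5 stem cell markers, again Olfm4 and Smoc2, lower. Their part in the guanylin, Kcnq1 and Slc26a3 results was not tested.

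**Figure D4:**
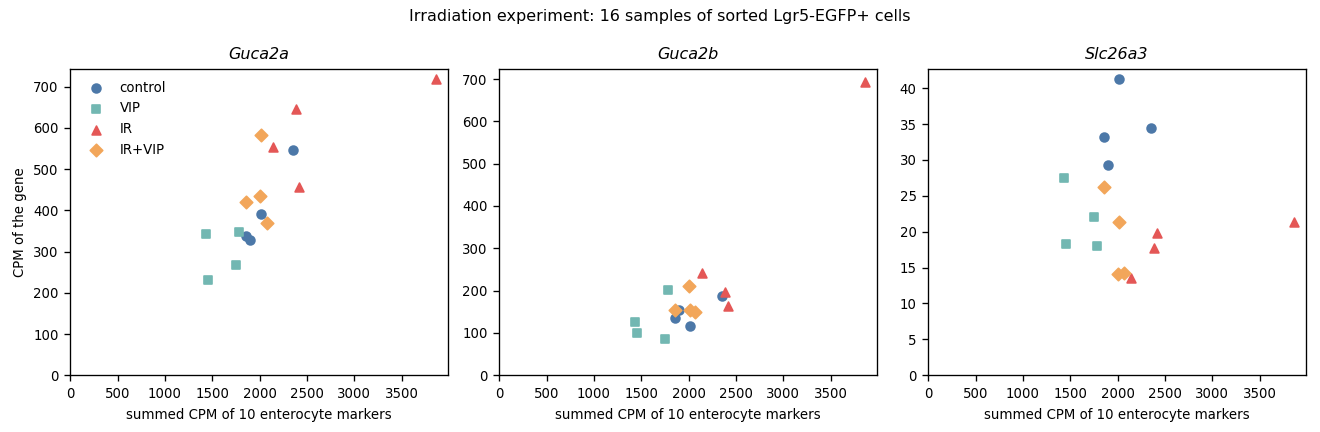
Level of Guca2a, Guca2b and Slc26a3 (CPM, vertical axes from 0) against the summed CPM of 10 enterocyte markers in the 16 samples of the irradiation experiment, 1 symbol per group. Irradiated control mouse 4 stands apart at a marker sum of 3864 CPM, where Guca2b is 694 CPM, while Slc26a3 is highest in the 4 controls (29.3 to 41.3 CPM).

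Other genes of the pathway were followed in 3 lists: 17 secretion channels and pumps, 17 absorption and water channel genes, and 28 regulators of cAMP, cGMP and membrane scaffolds. In whole organoids with VIP, 3 of 14 tested secretion genes were called, all higher: the calcium-activated chloride channel Ano1, the sulfate transporter Slc26a2 and the pump modulator Fxyd3, beside 4.82% of all genes called and 3.72% called higher. Ano1 had 14, 12 and 7 UMIs without VIP, at most 2.39 CPM, and 7.72, 12.5, 9.33 and 4.79 CPM with VIP, with no overlap (log2 fold change 2.09, SE 0.27, edgeR adjusted p = 4.16e-04). Slc26a2 rose by 0.57 and Fxyd3 by 0.60 on the log2 scale. The median of the list was 0.16, beside −0.06 for the 10 members and 0.00 for all genes.

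Among 13 tested absorption and water channel genes, the cytosolic carbonic anhydrase Car2 rose and the water channel Aqp4 fell with VIP in whole organoids, where 3.72% of all genes were called higher and 1.1% lower. Car2 had 5.6, 3.78 and 6.87 CPM without and 28.4, 23.4, 17.9 and 10.5 CPM with VIP, again without overlap (log2 fold change 2.14, SE 0.22, edgeR adjusted p = 5.67e-05). Aqp4 had 87.9, 85.0 and 66.9 CPM without and 60.4, 53.4, 60.8 and 68.5 with VIP (−0.46, SE 0.12, adjusted p = 0.0366). Of 24 tested regulators, 3 were called, all higher, against the same 3.72%: the scaffold NHERF1 (Slc9a3r1, 0.65), its partner ezrin (Ezr, 0.57) and the kinase SPAK (Stk39, 0.40), which activates NKCC1 by phosphorylation. As for Guca2a, no gene of the table was called with the first library of VIP-treated mouse 3 left out and the second kept.

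In sorted cells with VIP for 72 h, no list gene was called, where 0.0885% of all genes were. Of the lists, 9, 6 and 13 genes were tested, with 2, 1 and 0 at an unadjusted p under 0.05. In non-irradiated cells of the irradiation experiment, Stk39 rose from 107, 115, 133 and 134 CPM to 143, 178, 175 and 189 CPM in mice 1 to 4 (log2 fold change 0.49, SE 0.08, edgeR adjusted p = 0.00232). The water channel Aqp1 rose from 104 to 128 CPM in controls to 153 to 179 CPM with VIP (0.55, SE 0.09, adjusted p = 0.00218), and from 79.2 to 99.7 CPM to 116 to 137 CPM in irradiated cells (0.50, SE 0.10, adjusted p = 0.0191). In whole organoids Aqp1 was higher in 1 of 3 mice (−0.19, SE 0.12, adjusted p = 0.484). Irradiation of untreated cells raised the glucose transporter Slc5a1 (0.59) and Ezr (0.42) and lowered Aqp4 (−0.45). Irradiation of VIP-treated cells lowered Aqp1 (−0.36) and Aqp4 (−0.72) and raised Car2 (1.38, SE 0.38, adjusted p = 0.0223). In the irradiation experiment 11 secretion, 9 absorption and water channel and 19 regulator genes were tested. Of all genes, 0.742% were called with VIP in non-irradiated cells and 0.221% in irradiated cells. For irradiation, 4.46% were called in untreated and 7.78% in VIP-treated cells.

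The VIP receptor gene Vipr1 had 23.6 to 29.3 CPM in untreated and 21.4 to 32.9 CPM in VIP-treated whole organoids (log2 fold change 0.05, SE 0.13, edgeR adjusted p = 0.902), and 7.44 to 12.5 CPM in non-irradiated controls of the irradiation experiment.

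The genes whose pattern was most like that of 3 members were looked up over the 16 samples of the irradiation experiment, as a description. The measure was Pearson's r of log2 CPM after the mean of each mouse was taken off, and the 4 samples of a mouse share their line. For Guca2b these were Apoa1 (r = 0.945), the apolipoprotein of enterocytes, Ggt1 (0.942) and Spink1 (0.926), and without irradiated control mouse 4 their r was 0.902, 0.884 and 0.876 over 15 samples. For Slc12a2 they were Trim44 (0.956), Gm609 (0.89) and Txnrd1 (0.889), and for Cftr Gm6988 (0.859), Pip5k1b (0.838) and Dhx9 (0.832).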

How the data were processed

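RNA was measured in 37 libraries of 31 cultures. Per the labels and the study's methods, the authors made 3′ libraries with UMIs, mapped them to GRCm38 with GENCODE M25 using the Drop-seq pipeline 1 and deposited raw UMI counts per gene, without normalization. The tables held 27407, 20500 and 27547 genes, with 0 columns without a sample. Technical libraries of a culture were summed. The members and lists were chosen with earlier results of these data known.

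Tests used edgeR 4.0.16 under R 4.3.3, with filterByExpr by group, TMM, the quasi-likelihood test with mouse as a factor in the design, Benjamini-Hochberg adjustment and a threshold of 0.05, over 12727, 6778 and 9976 genes. The fit gives no standard error, so each SE is the absolute log2 fold change divided by the square root of the test's F statistic. The 4 groups of the irradiation experiment were fitted together, and 15 whole-organoid and Lgr5-EGFP+ cultures in 1 fit for the compartment. Low genes were filtered, so Slc26a3, Slc26a6 and Slc9a3 were not tested in Lgr5-EGFP+ cells, nor Slc9a3 in the irradiation experiment. The 10 members are named in every comparison, list genes where they passed the threshold (at most 5 per list, smallest p first), and Vipr1 was added after its values were seen. Replicates were paired by the line in the labels, which is 1 animal: deviations from group means correlated at 0.268 to 0.634 within a mouse in whole organoids (−0.545 to 0.334 between mice), at 0.029 to 0.212 in Lgr5-EGFP+ cells (−0.144 to 0.15) and at −0.071 to 0.158 in the irradiation experiment (−0.204 to 0.204). The labels do not say whether cultures of a mouse were otherwise separate, so p-values measure the spread between these samples.

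Alternatives were DESeq2 1.42.0, RLE factors, library size only, no filter, no mouse factor, other choices of technical library, only the groups compared and leaving out each mouse. A mouse was left out by its number, so the compartment fit lost a whole-organoid mouse and a different Lgr5-EGFP+ mouse at a time. Scripts were tested on simulated data. Positions are from GENCODE M21 and promoters from RefSeq, GRCm38.p6, in which 7 of 10 members were matched. The result of 1 marker gene is not reported here.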

Additional observations from a re-analysis of the deposited data

Results flagged for a closer look

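Within groups of 4 samples, 60 sets of a member and a group were checked for a sample far from the others by Dixon's criterion, which chance meets in about 1 of 20 sets, and 6 sets met it. Irradiated control mouse 4 met it for 3 genes. There Guca2b had 693.8 CPM (nearest sample 241.5), Gucy2c 56.81 CPM (nearest 34.91) and Slc26a6 27.01 CPM (nearest 9.341), and the summed enterocyte markers of that sample were 3864 CPM, against 2144 to 2418 in the other irradiated controls. In irradiated VIP-treated cells the sample of the same mouse had 212.1 CPM of Guca2b (nearest 153.7). Kcnn4 had 186.5 CPM in irradiated control mouse 3 (nearest 232.8). Slc12a2 had 310.9 CPM in VIP-treated whole organoids of mouse 3 (nearest 347.4), made up of libraries at 212.2 and 452.9 CPM.

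The VIP effect on Guca2a differed between sorted Lgr5-EGFP+ cells and whole organoids, with an interaction of −1.01 on the log2 scale (SE 0.18, edgeR adjusted p = 0.0145). Guca2a was higher with VIP in 3 of 3 mice in whole organoids and lower in 4 of 4 mice in the sorted cells. Over all alternatives the interaction lay between −1.18 and −0.80, with adjusted p from 1.10e-05 to 0.969.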

How the results depend on the processing

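Over the alternatives, 522 of the members' values kept their direction and their side of the threshold, 17 lost and 19 gained a call, and 34 turned in sign; none of those that turned was called in the reported fit. Without the mouse factor, a fit with no replicate block, the number of members called was 0 in whole organoids and 0 for the compartment, as it was when the first technical library of VIP-treated mouse 3 was left out, and without the block no other count of members moved. Over all genes, 614 calls in whole organoids became 99 without the block, 979 without a filter, 1668 without mouse 3, 0 without that first library and 300 with DESeq2, which gave 281 for 445 calls in irradiation of untreated and 489 for 776 in irradiation of VIP-treated cells. With the second library of that culture left out, 2 members were called. With no filter on low counts, 2 members were called for VIP in non-irradiated cells, beside 0.661% of all genes, and 3 in irradiated cells, beside 0.399%. For irradiation that setting called 4 in untreated cells (Slc26a6 gained), beside 2.06%, and 5 in VIP-treated cells (Slc12a2 and Guca2b gained), beside 3.17%. It called 1 (Guca2b) for the interaction of VIP with irradiation, beside 0.123%. With only the 2 groups compared, 2 were called for VIP in non-irradiated cells (Slc26a3 and Guca2a), beside 2.01%. For irradiation in VIP-treated cells 4 were called there (Guca2b gained), beside 8.59%. In the compartment fit, leaving out a mouse number removed a mouse of each experiment. Without each mouse number in turn, counts ranged from 1 to 7 in whole organoids (7 without mouse 3), 1 to 3 for irradiation of untreated and of VIP-treated cells, and 0 to 1 for the compartment. The cause was not tested.

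The values that turned are given as log2 fold changes. Kcnn4 in whole organoids was 0.0066 with library size only, 0.0065 without a filter, 0.0638 with the first libraries only and 0.0471 without the second library of VIP-treated mouse 3. Kcnq1 was 0.0018 with library size only for VIP in irradiated cells, and −0.0204 without a filter and −4e-04 with no replicate block for irradiation of untreated cells, where Cftr was −0.005 without a filter. Without the first library of VIP-treated mouse 3, whole organoids gave 0.1495 for Cftr, 0.0749 for Slc12a2, 0.0613 for Gucy2c and −0.0347 for Guca2b. Leaving out each mouse gave, in whole organoids, −0.4231 to 0.2266 for Cftr, −0.3549 to 0.0856 for Slc12a2, −0.0216 to 0.0093 for Kcnn4 and −0.0748 to 0.3952 for Slc26a6. It gave −0.2399 to 0.1212 for Kcnn4 in Lgr5-EGFP+ cells and −0.1279 to 0.0591 for Slc12a2 with VIP in non-irradiated cells. With VIP in irradiated cells it gave −0.0408 to 0.201 for Cftr, −0.0996 to 0.0725 for Kcnq1 and −0.0657 to 0.2449 for Slc26a3. For irradiation of untreated cells it gave −0.1464 to 0.1698 for Cftr, −0.1141 to 0.0584 for Kcnq1, −0.2264 to 0.0042 for Kcnn4 and −0.1096 to 0.2505 for Gucy2c, and for irradiation of VIP-treated cells −0.0137 to 0.0641 for Cftr and −0.3059 to 0.468 for Slc26a6. Counts of 10 UMIs or fewer per sample limit Slc26a3 and Slc26a6 in Lgr5-EGFP+ cells.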
